A study of Mus musculus with 9 samples.

Results

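The heterozygous Huntington disease line HD-het was placed against the log-scale midpoint of 2 homozygous striatal cell lines, and the genes for which it lay off that midpoint, or above or below both other lines, were described. The data were gene counts from 9 RNA-seq libraries, 3 of each line, and all 9 entered the comparison. Of 36410 genes listed, 13508 carried enough reads to be tested. All lines were mouse striatal cells of strain C57/BL6 that carry a knock-in of exon 1 of the huntingtin gene Htt. Both alleles held 7 glutamine repeats in control cells (STHdhQ7/Q7) and 111 repeats in HD-homo cells (STHdhQ111/Q111), and HD-het cells (STHdhQ7/Q111) held an allele of each length. The labels name no treatment.

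Huntington disease is caused by expansion of the CAG repeat that encodes a glutamine tract near the start of huntingtin, a large scaffold protein, and the projection neurons of the striatum are lost early. Patients as a rule carry an expanded allele beside a normal allele, so the heterozygous genotype is the one found in most families. If each expanded allele added the same step to the logarithm of a transcript's level, a heterozygous line would sit midway between the homozygous lines.

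The departure of a gene is given throughout as the log2 level in HD-het cells minus the mean of the log2 levels in control and HD-homo cells, with its standard error (SE), and levels are given as CPM, a gene's count divided by the library's total in megareads, after correction for library composition. A gene was called off the midpoint when edgeR's quasi-likelihood test gave a p-value, adjusted by Benjamini-Hochberg over the 13508 genes, under 0.05. It was called above both lines, or below both, when HD-het also differed from control and from HD-homo, each at an adjusted p under 0.05 and in the same direction. The 3 contrasts share the HD-het libraries, so their calls are not independent of each other. Each genotype was a single cell line, so genotype and line cannot be told apart. The labels do not say whether the 3 libraries of a line came from separate cultures, and the p-values measure only the spread between these libraries, which may be technical.

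The libraries held 29507665 to 41197931 counts. The first principal component of log2 CPM carried 64.1% of the variance and separated HD-homo (75.6 to 79.1) from control (-24.5 to -22.5) and HD-het (-54.4 to -50.9). The second carried 31.5% and separated HD-het (38.8 to 41.9) from control (-55.0 to -51.5), with HD-homo between them (9.60 to 14.5). HD-het therefore lay beyond control, not between the lines, on the first component. Of 21 genes typical of striatal projection neurons, 15 stayed at or below 1 CPM in every library, and the dopamine receptors Drd1 and Drd2 and the phosphatase regulator Ppp1r1b (DARPP-32) did not pass the filter on low counts, so the defining markers of that cell type were absent or nearly so. The 5 neural progenitor markers summed to 5894 to 6356 CPM in control, 5315 to 5819 CPM in HD-het and 4157 to 4574 CPM in HD-homo. The sum does not show the position of each marker. Of the 4 markers tested, HD-het was above both lines for 2, higher than the log2 midpoint only for 1 and not off it for 1, Vim. Htt itself was highest in control cells, at 104, 103 and 93.0 CPM, intermediate in HD-het cells, at 61.8, 64.0 and 61.1 CPM, and lowest in HD-homo cells, at 19.7, 21.7 and 19.2 CPM. Its level in HD-het lay 0.47 ± 0.06 log2 units (SE, n = 3 per line) above the midpoint (adjusted p = 1.8e-05). On the linear CPM scale its level in HD-het was close to the mean of the other lines. The count cannot tell the expanded from the normal allele.

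Most tested genes did not follow the midpoint. HD-het was off it for 9483 genes, 70.2% of those tested, of which 4974 were higher (36.8%) and 4509 lower (33.4%). HD-het was above both lines for 3070 genes (22.7%) and below both for 3006 (22.3%), so that 6076 genes (45.0%) lay outside the range of the homozygous lines. A further 1904 genes (14.1%) were higher and 1503 (11.1%) lower than the midpoint without lying outside both lines, and 4025 (29.8%) were not called. Against control alone, 4561 genes were higher (33.8%) and 4236 lower (31.4%) in HD-het, and against HD-homo alone 4806 were higher (35.6%) and 4860 lower (36.0%). These shares are the background against which each group of genes below is to be read.

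The departures were mostly modest. The median absolute departure was 0.40 log2 units with a median SE of 0.08, and the median departure over all tested genes was 0.02. The margin, the smaller of the differences from control and from HD-homo, had a median of 0.62 for genes above both lines and -0.48 for genes below both. It reached 1 log2 unit for 903 genes above both (6.68%) and 498 genes below both (3.69%). All 3 HD-het libraries lay above the 6 others for 3383 genes (25.0%) and below them for 3199 genes (23.7%). A midpoint taken on the linear CPM scale instead gave the same sign for 98.9% of called genes. The 100 genes that changed sign were all among the 3407 that lay off the midpoint without lying outside both lines, since a gene above or below both lines has the same sign on either scale.

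**Figure D1:**
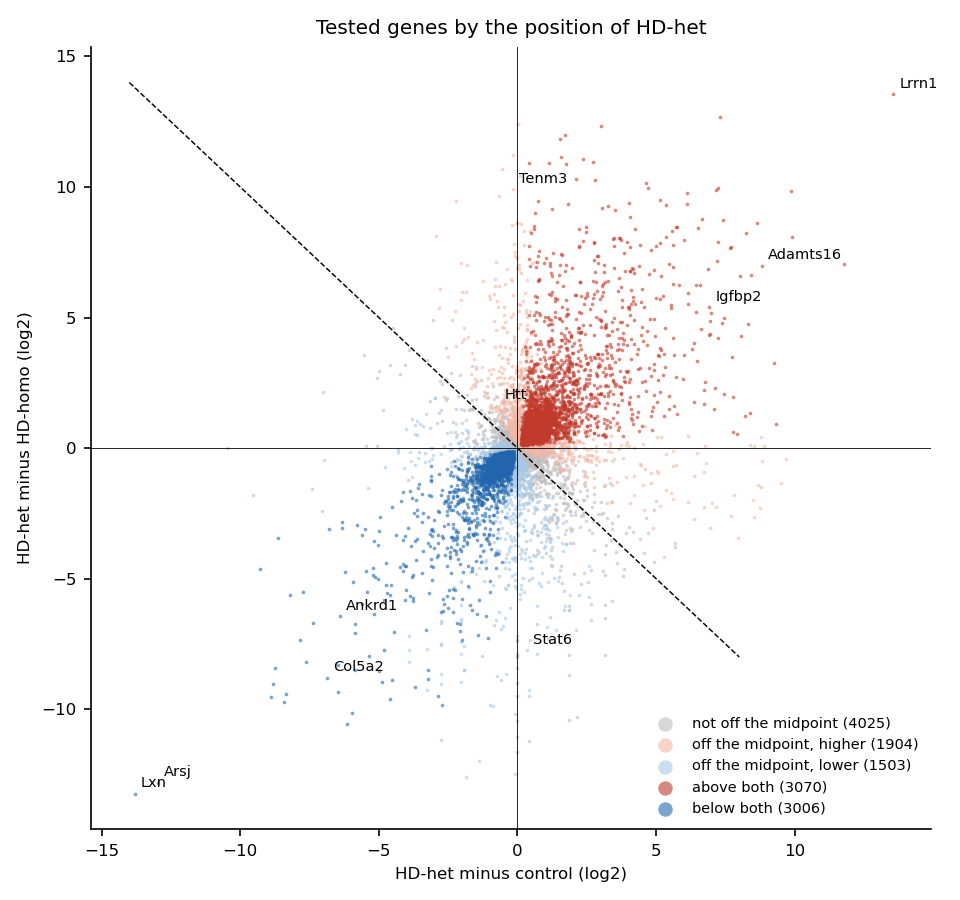
Each point is a tested gene, placed by the log2 difference of HD-het from control (horizontal axis) and from HD-homo (vertical axis). The dashed line marks a level exactly at the midpoint. The 3070 genes above both lines fill the upper right quadrant and the 3006 below both the lower left, while Htt lies in the upper left quadrant, between the homozygous lines.

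Among genes of at least 10 CPM in their highest line and with no overlap between HD-het and the 6 other libraries, the largest margins above both lines belonged to genes that were at or near 0 in both homozygous lines. Lrrn1, a leucine-rich repeat membrane protein of neural cells (chromosome 6, 107529726 to 107570228, GRCm38.p6), had 40.4, 44.2 and 47.7 CPM in HD-het and no read in any other library. Against a floor of 3 counts per library this is at least 466-fold higher than control and at least 524-fold higher than HD-homo. Col14a1, a fibril-associated collagen, had 13.3 to 13.9 CPM in HD-het and at most 0.0613 CPM elsewhere, which is at least 144-fold above control and at least 162-fold above HD-homo. These genes were close to silent in both homozygous lines and well detected in the heterozygous line.

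Other genes with large margins were measurable in every line. Igfbp2, a secreted protein that binds insulin-like growth factors (chromosome 1, 72824480 to 72852474), was at 5.66, 6.87 and 4.87 CPM in control, 779, 677 and 647 CPM in HD-het and 13.1, 17.2 and 19.4 CPM in HD-homo. It was 121-fold above control and 42.3-fold above HD-homo (departure 6.16 ± 0.12, adjusted p = 1.8e-11). Genes of neuronal excitability stood in the same group. Kcnab1, an auxiliary subunit of voltage-gated potassium channels, was at 77.6 to 78.2 CPM in HD-het against 1.25 to 1.55 CPM in control and 0.521 to 1.49 CPM in HD-homo. Gria3, an AMPA-type glutamate receptor subunit, was at 17.1 to 27.5 CPM in HD-het and at most 0.565 CPM in all other libraries, and Pex5l, which traffics pacemaker channels, was at 20.7 to 26.0 CPM in HD-het and at most 0.208 CPM elsewhere. The other members were Adamts16 (a matrix protease), Fibin, Stag3 (a meiotic cohesin subunit), Podn (a matrix proteoglycan) and Erfe (erythroferrone, a secreted regulator of iron). Of these Erfe was 38.4-fold above control and 57.2-fold above HD-homo, and Podn 46.6-fold and 41.7-fold. In each of these genes the HD-het libraries lay clear of the 6 others. Erfe is also listed and tested under its older symbol Fam132b, and the values given are those of the entry named Erfe.

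The largest margins below both lines were for genes that HD-het did not detectably express. Lxn, latexin, an inhibitor of carboxypeptidases (chromosome 3, 67457999 to 67463907), was at 55.1, 55.7 and 48.3 CPM in control, at 32.0, 33.6 and 40.3 CPM in HD-homo and had no read in HD-het, at least 598-fold and 398-fold lower by the floor of 3 counts. Arsj, an arylsulfatase, was at 28.4 to 30.7 CPM in control, 25.9 to 26.9 CPM in HD-homo and 0 in HD-het. Calhm2, a channel of the calcium homeostasis modulator family, Tmco4, Cnnm1, a magnesium transporter, Car12, a carbonic anhydrase, Ptgis, prostacyclin synthase, and 2200002D01Rik were each at or below 0.0846 CPM in every HD-het library and at 2.70 CPM or more in every other library. Both homozygous lines expressed these genes.

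The remaining genes of that group kept reads in every HD-het library. Cd82, a tetraspanin, was near the floor there, at 25.9 to 26.5 CPM in control, 0.0846 to 0.180 CPM in HD-het and 35.6 to 42.3 CPM in HD-homo. Nav3, a regulator of microtubules, fell from 71.7 to 83.9 CPM in control and 47.0 to 51.7 CPM in HD-homo to 0.335 to 0.689 CPM in HD-het. Ankrd1, a cardiac and stress-responsive ankyrin repeat protein, was at 123, 121 and 118 CPM in control, 1.07, 1.01 and 2.22 CPM in HD-het and 85.3, 165 and 118 CPM in HD-homo. Control and HD-homo overlapped for Ankrd1, and HD-het lay 6.41 ± 0.29 log2 units below their midpoint (adjusted p = 7.9e-09).

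**Figure D2:**
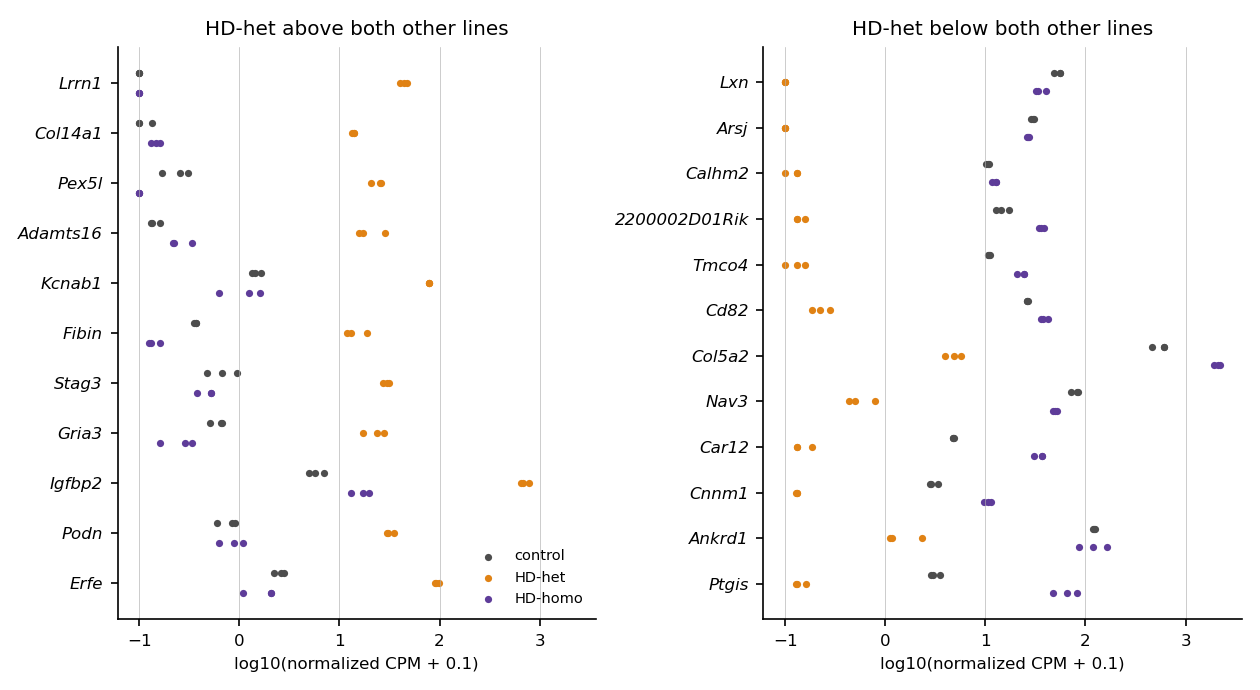
Levels in each of the 9 libraries, as log10 of normalized CPM plus 0.1, for genes with the largest margins above both lines (left) and below both lines (right). Orange HD-het points stand apart from the grey control and purple HD-homo points in every gene, with no overlap.

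Genes were next read by function, in lists of which the members were counted by class beside the share of all tested genes, 22.7% above both lines and 22.3% below both. The lists with the largest share below both lines were the cytosolic ribosomal proteins, the Hox genes, the heat shock proteins, the NF-kappaB pathway and the cholesterol pathway. The largest shares above both were for smooth muscle contractile genes, targets of YAP-TEAD and SRF, lysosomal genes and endoplasmic reticulum (ER) chaperones.

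**Figure D3:**
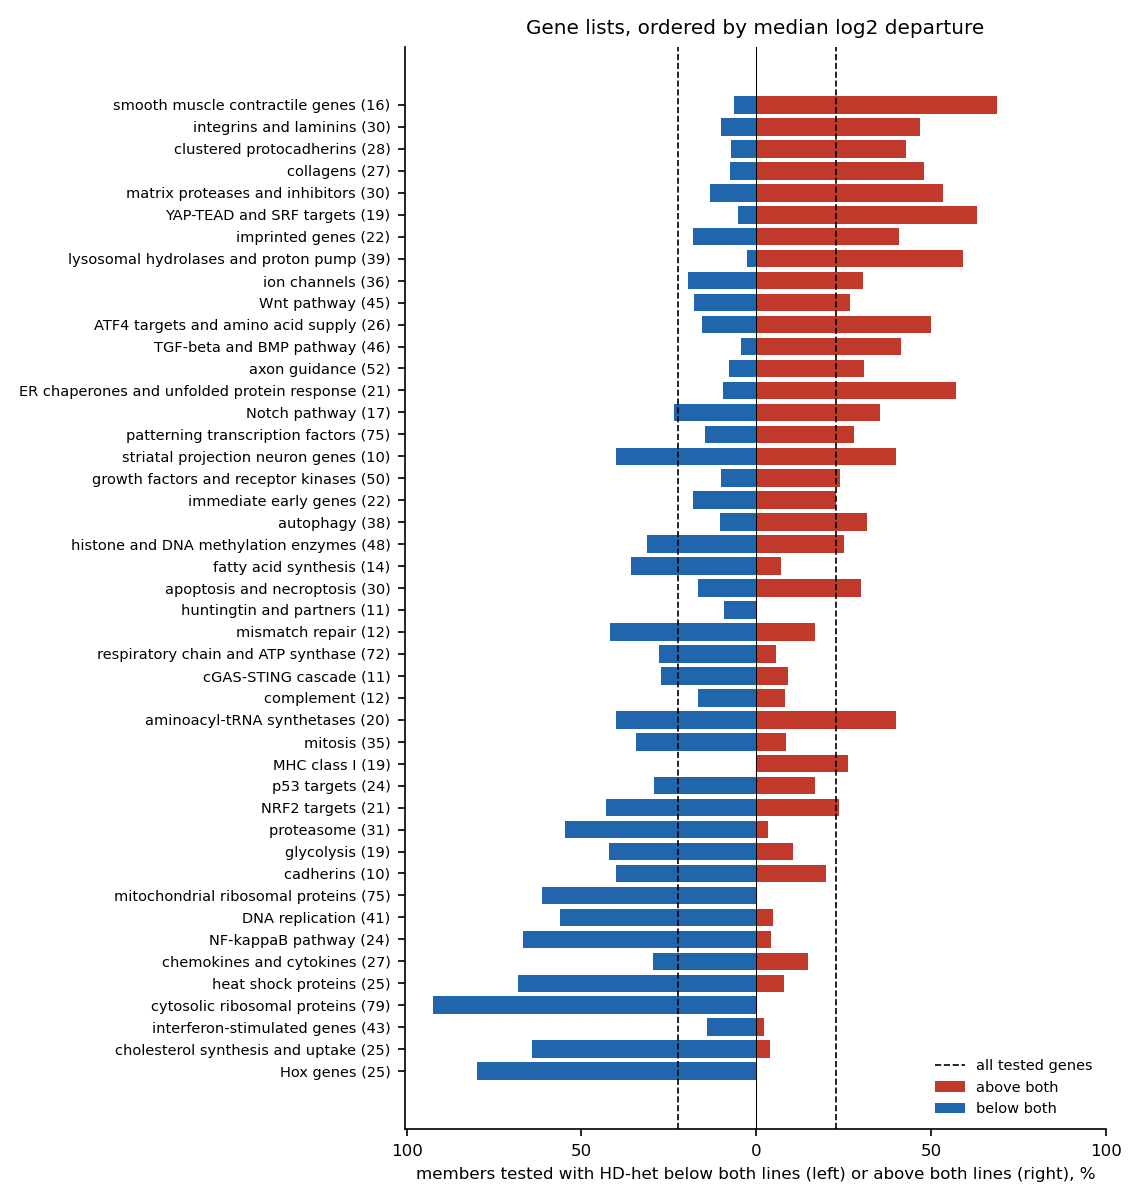
Share of the tested members of each gene list (number tested in parentheses) for which HD-het lay below both lines (blue, to the left) or above both (red, to the right), ordered by the list's median departure. Dashed lines mark 22.7% and 22.3%, the shares among all tested genes; 73 of 79 cytosolic ribosomal protein genes lie below both and 11 of 16 contractile genes above both.

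Ribosomal protein genes were lower in HD-het. Of 79 cytosolic ribosomal protein genes, which encode the protein part of the ribosome, 73 were below both lines and 0 above, with a median departure of -0.52. The remaining 6 were Rps9, Rps16, Rps29 and Rpl39, which were lower than the midpoint without lying below both lines, and Rps14 and Rpl37a, which were not called. Rpl8 was at 1535, 1541 and 1746 CPM in control, 707, 660 and 797 CPM in HD-het and 1885, 1629 and 1798 CPM in HD-homo, 2.23-fold and 2.45-fold lower in HD-het. Rps26 was at 346 to 396 CPM in control, 152 to 188 CPM in HD-het and 335 to 362 CPM in HD-homo. For both, every HD-het library lay below every other library. Rpl8 lies on chromosome 15, where the median departure of all tested genes was -0.59. Without the members on chromosomes 15 and 18 the lowest departure in the list was -1.08, against -1.23 with them. The median was then -0.51, with 68 of 73 below both. Ribosomal protein genes have many near-identical processed pseudogenes, so the reads given to a single gene are uncertain.

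The mitochondrial ribosomal proteins, which translate the mitochondrial genome's transcripts, showed the same direction with smaller steps: 46 of 75 were below both lines and 0 above, with a median of -0.31. Mrpl13 was at 84.4 to 92.8 CPM in control, 43.0 to 50.2 CPM in HD-het and 91.8 to 97.0 CPM in HD-homo. Mrpl13 lies on chromosome 15. Without members on chromosomes 15 and 18, 45 of 74 were below both, with a median of -0.30. The aminoacyl-tRNA synthetases, which charge tRNAs with amino acids, divided evenly, with 8 of 20 above both and 8 below both. Kars (lysine) was 1.71-fold below control and 2.08-fold below HD-homo, whereas Nars (asparagine) was 1.74-fold above control and 1.38-fold above HD-homo. Nars lies on chromosome 18, which as a whole was higher in HD-het. Without the synthetases on chromosomes 15 and 18, 6 of 16 were above both and 7 below. Of 72 genes of the respiratory chain and ATP synthase, 20 were below both, 4 above and 31 not called. The number above both was 7 without control replicate 3 and 2 without HD-het replicate 3. The largest margins below both in that list were for Atp5g2 (a subunit c gene of ATP synthase), Cox6c and Cyc1, all on chromosome 15, which as a whole was lower in HD-het.

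Cytosolic chaperones and the proteasome were also lower. Of 25 heat shock protein genes, 17 were below both lines and 2 above, with a median departure of -0.49. Hsf1, the transcription factor that drives the heat shock response, was at 73.4 ± 1.72 CPM (SD, n = 3) in control, 46.8 ± 2.63 in HD-het and 79.6 ± 4.41 in HD-homo. Hsf1 lies on chromosome 15, which as a whole was lower in HD-het. Without members on chromosomes 15 and 18, 15 of 22 were below both, with a median of -0.48. Hsph1, a nucleotide exchange factor for Hsp70, was at 170 to 193 CPM in control, 55.9 to 73.2 CPM in HD-het and 136 to 156 CPM in HD-homo (departure -1.36 ± 0.09, adjusted p = 1.5e-07). The chaperonin subunits Cct2, Cct3, Cct4, Cct5, Cct7 and Cct8 were below both, as were Hspa8, Hsp90aa1 and Hsp90ab1. Hspa1a and Hspa1b, the inducible Hsp70 genes, were below both too, but they are near-identical copies and their reads cannot be assigned with certainty. The members above both were Hspb1, a small heat shock protein, at 49.7 to 54.5 CPM in HD-het against 33.8 to 37.0 CPM in control and 8.25 to 10.1 CPM in HD-homo, and Hspa9, the mitochondrial Hsp70. Of 31 proteasome genes, 17 were below both and 1, Psmd8, above, with a median of -0.23. Psmd8 stayed higher than the midpoint but was not above both without control replicate 1, control replicate 2 or HD-het replicate 3. Psmb3 was 1.61-fold and Psma2 1.51-fold below control.

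The ER chaperones moved the other way. Of 21 genes of ER folding and the unfolded protein response, 12 were above both lines and 2 below, with a median departure of 0.36. Xbp1, a transcription factor of that response, was at 46.6 to 49.9 CPM in control, 69.9 to 81.5 CPM in HD-het and 38.5 to 43.7 CPM in HD-homo. Pdia6, a disulfide isomerase, was at 320 ± 10.1 CPM in HD-het against 235 ± 4.09 in control and 210 ± 15.3 in HD-homo, and Dnajb9, Edem1, Dnajc3, Manf, Hyou1 and Sel1l were also above both. The abundant chaperones Hspa5 (BiP), Hsp90b1 and Calr were not off the midpoint; Hspa5 was at 915 ± 10.2, 1151 ± 15.9 and 1220 ± 114 CPM in control, HD-het and HD-homo. The members below both were Creld2 and Syvn1, and the list had 1 member below both without HD-het replicate 3 or without HD-homo replicate 1.

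The list was then compared by promoter sequence, because genes of this response carry a shared element. RefSeq promoters, 250 bases before to 50 after the start of transcription on GRCm38.p6, were matched for 10396 tested genes and searched on both strands. The ER stress element, CCAAT and CCACG with any 9 bases between them, occurred in 14 of them (0.135%), and in 8 of the 18 promoters of list members. Of those 8 genes, 2 were above both lines, 2 below both, 1 higher than the midpoint and 3 not called, and of the 10 members without it 7 were above both. Of the 2 genes below both, Creld2 lies on chromosome 15, which as a whole was lower in HD-het. The elements of the 2 genes above and the 2 below both lines are printed with the matched letters in capitals, to show that the same arrangement was present on either side.
Pdia6, above both, chr12:17266486-17266514, + strand: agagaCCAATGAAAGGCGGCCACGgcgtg
Dnajc3, above both, chr14:118937822-118937850, + strand: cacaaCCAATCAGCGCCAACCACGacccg
Creld2, below both, chr15:88819515-88819543, - strand: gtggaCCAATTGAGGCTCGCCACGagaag
Syvn1, below both, chr19:6046527-6046555, + strand: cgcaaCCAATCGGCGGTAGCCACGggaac

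Targets of ATF4, the factor translated when eIF2alpha is phosphorylated, were higher more often than lower: of 26 genes of amino acid supply and the integrated stress response, 13 were above both lines and 4 below, with a median of 0.45. Trib3, a pseudokinase induced by stress, was at 7.67 to 9.01 CPM in control, 53 to 62.7 CPM in HD-het and 11.5 to 27.5 CPM in HD-homo, 6.98-fold and 3.33-fold higher in HD-het. Ddit3 (CHOP) was at 14.8 ± 0.569, 41.1 ± 4.6 and 20.9 ± 4.83 CPM in the same order of lines, and Atf5 was 3.26-fold above control and 2.45-fold above HD-homo. The mRNA of Atf4 itself was below both lines, at 282 to 303 CPM in HD-het. Control was at 337 to 346 CPM and HD-homo at 359 to 406 CPM. Atf4 lies on chromosome 15, which as a whole was lower in HD-het (median departure -0.59). The other members below both were Psat1, Phgdh and Shmt2, enzymes of serine and glycine synthesis.

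The composite element TTGCATCA, bound by C/EBP and ATF factors, occurred in 57 of the 10396 promoters (0.548%) and in 5 of the 22 matched promoters of the ATF4 list. Of the 5 genes, 2 were above both, 2 (Nupr1 and Pycr1) higher than the midpoint and 1 (Fgf21) not called. Of the 17 members without it, 10 were above both and 4 below. The sites of the 2 genes above both are printed, with the element in capitals.
Chac1, chr2:119351038-119351067, + strand: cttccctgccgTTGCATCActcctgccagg
Slc7a11, chr3:50443642-50443671, - strand: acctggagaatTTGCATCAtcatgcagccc
Slc7a11, the cystine transporter, was at 34.4 to 44.8 CPM in HD-het against 11.5 to 15.5 CPM in control and 18.2 to 22.8 CPM in HD-homo. Chac1, which degrades glutathione, was called above both at 36.6 ± 2.81 CPM in HD-het and 9.75 ± 0.182 in control, but HD-homo varied widely, at 19.1 ± 14.6 CPM, and its libraries overlapped those of HD-het.

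Sterol genes formed another group below both lines. Of 25 genes of cholesterol synthesis and uptake, 16 were below both and 1 above, with a median departure of -0.71. Srebf2, the transcription factor that drives the pathway, was at 406 ± 18.4 CPM in control, 129 ± 4.99 in HD-het and 305 ± 56.4 in HD-homo. Idi1, isopentenyl diphosphate isomerase, was at 70.1 to 85.3 CPM in control, 11.4 to 14.2 CPM in HD-het and 37.4 to 64.4 CPM in HD-homo, 6.01-fold and 4.04-fold lower in HD-het. Hmgcs1, an early enzyme of the pathway, and Sqle, squalene epoxidase, were below both as well, with no overlap of HD-het with the other libraries. Dhcr7, which makes the last step of a branch of the pathway, was the member above both, 1.41-fold over control and 2.05-fold over HD-homo. Srebf2 and Sqle lie on chromosome 15; without the members on chromosomes 15 and 18, 14 of 22 were below both.

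In fatty acid synthesis 5 of 14 genes were below both and 1 above, Mid1ip1, with a median departure of 0.05. Of the others Srebf1, Me1 and Acsl3 were higher than the midpoint only, Elovl1 lower only, and 4 were not called. Elovl6, an elongase, was 4.96-fold below control and 3.10-fold below HD-homo, Scd1, the stearoyl-CoA desaturase, 2.14-fold and 2.00-fold, and Fasn, fatty acid synthase, was at 718 to 777 CPM in control, 360 to 397 CPM in HD-het and 610 to 706 CPM in HD-homo. Of 19 glycolytic genes, 8 were below both and 2 above, and 5 were below both without HD-het replicate 1 or HD-het replicate 2. The phosphofructokinase genes went in opposite directions: Pfkl was at 28.7 to 31.0 CPM in HD-het, below 75.8 to 78.6 CPM in control and 96.1 to 103 CPM in HD-homo, and Pfkp was at 112 to 138 CPM in HD-het, above 47.1 to 51.6 CPM and 49.8 to 57.0 CPM. Gapdh was not off the midpoint (departure -0.20 ± 0.09, adjusted p = 0.060).

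Genes of DNA replication were lower and those of mitosis less uniformly so. Of 41 replication genes, 23 were below both and 2 above, with a median of -0.35. The helicase subunits Mcm3 and Mcm5 were at 193 ± 18.2 and 173 ± 11.5 CPM in HD-het against 348 ± 30.7 and 272 ± 12.1 in control and 341 ± 48.8 and 337 ± 35.9 in HD-homo. E2f1 and Ccne1, which open S phase, were the members above both, by 1.28-fold to 1.39-fold. Of 35 mitotic genes, 12 were below both, 3 above and 17 not called. The number above both was 1 without HD-het replicate 1, without HD-het replicate 3 or with library totals. Cdk1, the mitotic kinase, was at 199 to 216 CPM in HD-het against 332 to 353 CPM in control and 327 to 372 CPM in HD-homo.

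Mismatch repair genes were counted separately because their products act on CAG repeats as these lengthen in cells. Of 12, 5 were below both (among them Msh3, Exo1, Pms2 and Lig1) and 2 above (Mlh3 and Fan1). Msh3, whose product recognises extruded loops of repeat DNA, was at 24.4 to 25.4 CPM in control, 15.5 to 16.4 CPM in HD-het and 25.4 to 30.8 CPM in HD-homo. Mlh3, a subunit of the nuclease MutLgamma, was at 8.39 to 10.1 CPM in HD-het against 2.33 to 3.52 CPM in control and 1.5 to 2.21 CPM in HD-homo. Fan1, a nuclease that protects the repeat, was 1.42-fold and 1.52-fold higher in HD-het. The lengths of the CAG repeats were not measured here.

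Lysosomal genes were higher in HD-het. Of 39 hydrolases and subunits of the vacuolar proton pump, 23 were above both lines and 1 below, with a median departure of 0.56. Ctsd, cathepsin D, was at 255, 247 and 259 CPM in control, 568, 520 and 546 CPM in HD-het and 184, 211 and 208 CPM in HD-homo. Hexa, which degrades gangliosides, was 2.26-fold above control and 2.22-fold above HD-homo, and Npc1, which exports cholesterol from the lysosome, 2.16-fold and 2.25-fold. Neu1 and Ctsa, a sialidase and the protective protein it binds, the galactosidase Gla and the membrane proteins Lamp1 and Lamp2 were above both as well. The member below both was Atp6v1c1, on chromosome 15. Ctsh was an exception of another kind, at 0.488 ± 0.165, 0.562 ± 0.232 and 17.8 ± 2.01 CPM in control, HD-het and HD-homo. Tfeb, a transcription factor of lysosomal genes, was not off the midpoint (departure 0.10 ± 0.11, adjusted p = 0.42).

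The palindrome TCACGTGA, the form of the E-box found in promoters of lysosomal genes, occurred in 192 of the 10396 promoters (1.85%) and in 5 of the 28 matched promoters of this list. Of these, 3 belonged to genes above both lines, and are printed with the palindrome in capitals, 1 (Atp6v0e) was higher than the midpoint and 1 (Atp6v1a) was not called. Of the 23 members without it, 15 were above both.
Ctsd, chr7:142387908-142387937, - strand: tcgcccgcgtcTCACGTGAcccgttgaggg
Gla, chrX:134601182-134601211, - strand: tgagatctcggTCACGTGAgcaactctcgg
Atp6v0d1, chr8:105566050-105566079, - strand: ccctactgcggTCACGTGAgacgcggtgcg
Autophagy genes, which deliver material to the lysosome, were less uniform: 12 of 38 were above both, 4 below and 17 not called. Rb1cc1, a scaffold of the initiating kinase complex, was at 205 to 239 CPM in HD-het, above 117 to 155 CPM in control and 72.8 to 113 CPM in HD-homo. Map1lc3b, the LC3B that coats autophagosomes, was 1.40-fold above each line, and Sqstm1, the p62 cargo receptor, was at 571 ± 60.5 CPM against 383 ± 22.1 and 319 ± 13.7. Atg5 was below both.

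The contractile and matrix genes held some of the largest departures among abundant transcripts. Of 16 smooth muscle contractile genes, 11 were above both lines and 1, Smtn, below, with a median departure of 1.57. Tagln (transgelin), which binds actin filaments, was at 292, 297 and 227 CPM in control, 1810, 1678 and 1880 CPM in HD-het and 31.8, 10.3 and 22.6 CPM in HD-homo. Acta2, smooth muscle actin, was at 2056 to 2384 CPM in control, 4931 to 5639 CPM in HD-het and 57.7 to 116 CPM in HD-homo, and Cnn1, calponin, was 23.8-fold above control and 41.2-fold above HD-homo. Myh11, the smooth muscle myosin, was higher than the midpoint but not above both, at 28.0 to 34.5 CPM in all libraries. Its call was lost in 8 of the alternatives run, on leaving out single libraries or with library totals, where the adjusted p of edgeR's quasi-likelihood test reached 0.212. The pericyte marker Rgs5 did not pass the filter on low counts. The levels of 7 smooth muscle and pericyte markers were summed, 1 of which was at or below 1 CPM in every library. The sum was 2399 to 2807 CPM in control, 7221 to 7911 CPM in HD-het and 225.1 to 328.5 CPM in HD-homo. In control and HD-het Acta2 made up most of it. Of the 6 markers tested, 4 were above both, Myh11 was higher than the midpoint only and Des lower only (departure -0.55). Des lost its call in 1 of the alternatives run. With bulk RNA, more cells of a type and more RNA per cell cannot be told apart, and the part of such cells in these results was not tested.

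Of 19 targets of YAP-TEAD and SRF, factors that answer to tension on the cytoskeleton, 12 were above both, with a median of 0.58. Thbs1, thrombospondin, reached 12556 to 13721 CPM in HD-het against 3812 to 4893 CPM in control and 1748 to 2456 CPM in HD-homo. Ctgf, at 5028 ± 630 CPM in HD-het against 2256 ± 515 and 2970 ± 453, Flna and Tpm1 were above both too. Ankrd1, described above, was the member below both, and is a common reporter of the same pathway. Without HD-het replicate 3, 3 members were below both. Srf itself was not off the midpoint, at 153 ± 3.45, 146 ± 5.24 and 141 ± 11.9 CPM.

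Collagens were split by chain. Of 27, 13 were above both and 2 below, with a median of 0.94. Col1a1 and Col1a2 encode the chains that join in type I collagen. Col1a1 was at 2465 ± 382 CPM in control, 7097 ± 734 in HD-het and 4234 ± 226 in HD-homo, while Col1a2 was at 73.4 ± 6.19, 3.15 ± 0.424 and 1494 ± 75 CPM. The chains of type V collagen parted in the same way: Col5a1 was at 2526 ± 272 CPM in HD-het, above 581 ± 95.9 in control and 808 ± 142 in HD-homo, and Col5a2 was at 3.89, 5.55 and 4.73 CPM in HD-het, 118-fold below control (606, 603 and 465 CPM) and 442-fold below HD-homo (2220, 2127 and 1912 CPM). The departure of Col5a2 was -7.84 ± 0.16 (adjusted p = 2.2e-11) and that of Col5a1 1.88 ± 0.12 (adjusted p = 1.1e-07). Col4a1 and Col4a2, neighbours that encode chains of type IV collagen, were both above both lines, at 1592 ± 120 and 1064 ± 84.1 CPM in HD-het against 589 ± 38.0 and 405 ± 31.3 in control and 380 ± 57.5 and 301 ± 49.6 in HD-homo. The summed level of 5 fibroblast markers, of which Col1a1 made up most, was 2115 to 2815, 6340 to 7799 and 5815 to 6332 CPM in control, HD-het and HD-homo, whereas the markers Col1a2 and Dcn were below both and Pdgfra was at 5.21 ± 0.880, 4.38 ± 0.777 and 307 ± 5.22 CPM. The part of such cells in the collagen results was not tested.

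Receptors and enzymes of the matrix were higher. Of 30 integrins, laminins and nidogens, 14 were above both and 3 below, with a median of 1.12. Itga8 was at 4.49 to 6.34 CPM in HD-het and at most 0.0676 CPM elsewhere, and Itgb1, the common beta subunit, was at 4363 ± 156 CPM against 2565 ± 178 in control and 1702 ± 131 in HD-homo. The nidogens, which link laminin to collagen IV, parted: Nid2 was at 194 ± 10.6 CPM in HD-het against 5.91 ± 0.632 and 57.9 ± 1.84, and Nid1 was 1.53-fold below control and 4.20-fold below HD-homo. Of 30 matrix proteases and their inhibitors, 16 were above both and 4 below. Serpine2, an inhibitor of thrombin, was at 99.1 to 106 CPM in HD-het, 1.99 to 2.33 CPM in control and 3.68 to 7.58 CPM in HD-homo, and Adamts1 was 5.15-fold and 10.5-fold lower.

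In the TGF-beta and BMP pathway 19 of 46 genes were above both and 2 below, with a median of 0.44. All 3 TGF-beta ligands were above both; Tgfb2 was at 31.1 to 43.5 CPM in control, 142 to 147 CPM in HD-het and 34.8 to 50 CPM in HD-homo. Among BMP ligands Gdf5 was at 2.10 to 3.19 CPM in HD-het, at least 28.2-fold above control, and Bmp4 was at 12.2 ± 1.14 CPM against 4.76 ± 0.452 and 2.96 ± 1.03. The secreted antagonists Grem1 and Chrd were above both, and Fst, follistatin, was below both, 2.28-fold under control and 8.41-fold under HD-homo. The target genes Id1, Id2, Id3, Smad6 and Smad7 were not off the midpoint, whereas Id4 was above both and Bambi higher than the midpoint only.

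**Figure D4:**
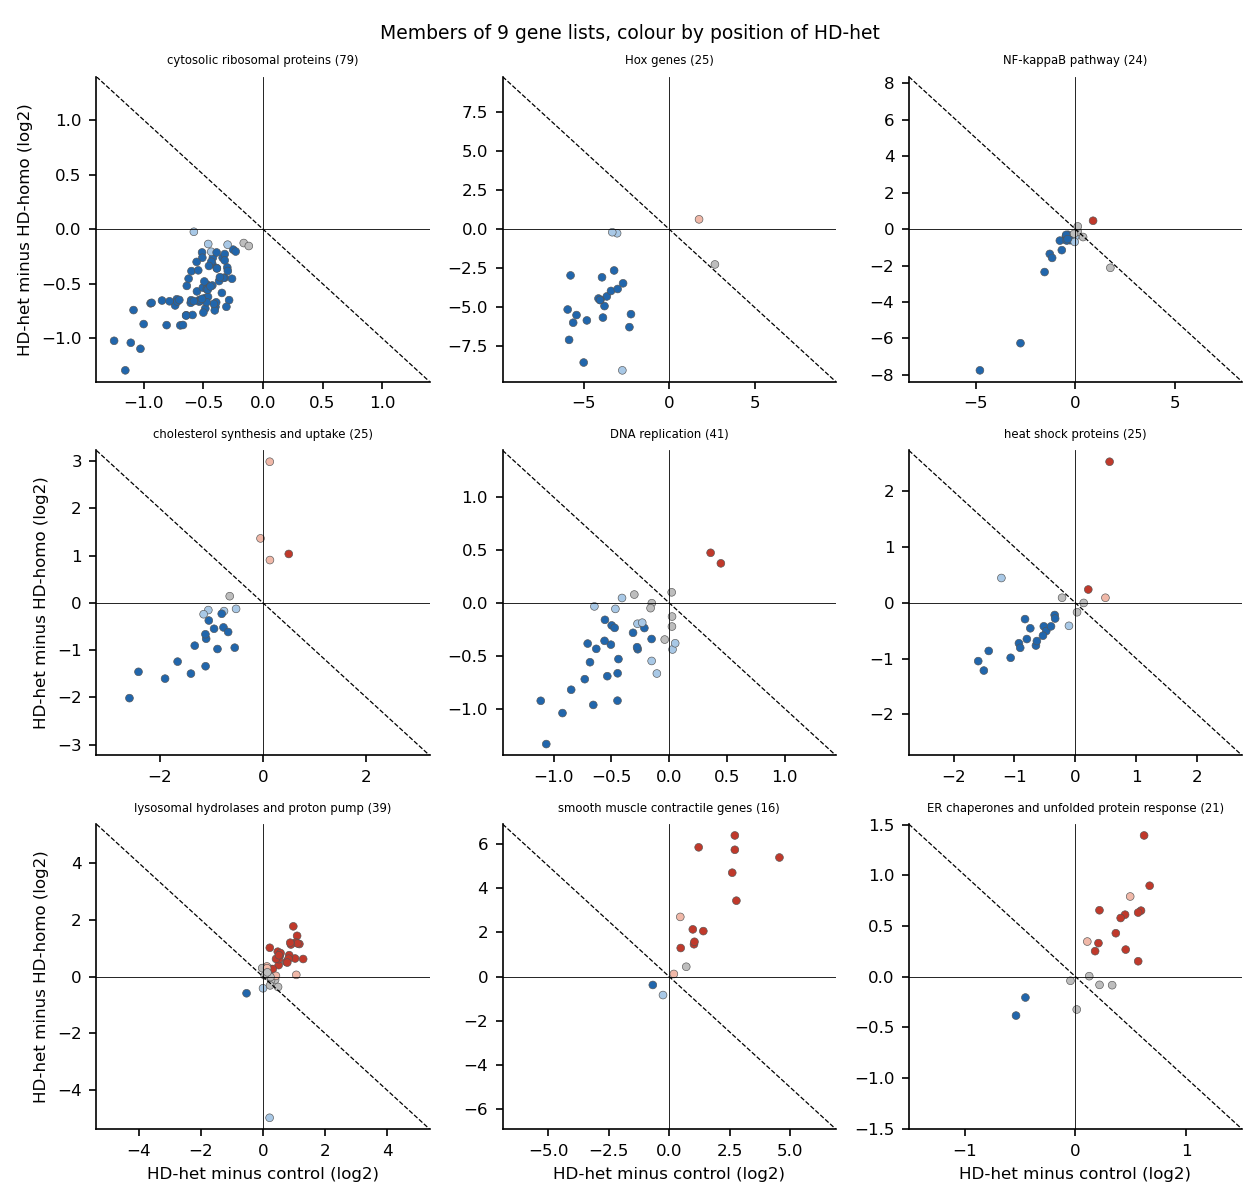
Members of 9 gene lists, placed by the log2 difference of HD-het from control (horizontal) and from HD-homo (vertical), with the number tested in parentheses. Dark blue members are below both lines, dark red above both, pale blue and pale red off the midpoint only and grey not called; the dashed line is the midpoint, and axis ranges differ between panels.

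The Hox genes, which give cells their position along the body axis and are as a rule silent in the forebrain, had the lowest median departure of all lists, -4.29. Of 25 tested, 20 were below both lines and 0 above. Hoxb9 was at 60.6 ± 3.43 CPM in control, 3.65 ± 0.570 in HD-het and 84.6 ± 12.1 in HD-homo, and Hoxb8 at 22 ± 1.42, 1.44 ± 0.491 and 12.2 ± 1.5 CPM. Hoxb6 and Hoxb7, their neighbours on chromosome 11, were at 0.835 ± 0.432 and 0.640 ± 0.368 CPM in HD-het against 14.8 ± 1.69 and 10.5 ± 2.07 in control. From Hoxb2 to Hoxb9 each tested gene was below both lines, over 96271330 to 96354020 of that chromosome. In the other clusters Hoxa10 was at 1.78 to 2.30 CPM in control, at most 0.061 CPM in HD-het and 2.39 to 3.10 CPM in HD-homo. The exceptions included Hoxd8, which was higher than the midpoint, and Hoxa2, Hoxc8 and Hoxb13, which were lower without lying below both.

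Other patterning transcription factors were mixed: of 75 tested, 21 were above both, 11 below and 19 not called, and 7 were below both without control replicate 2. Factors of the forebrain were found on either side. Pax6, which marks dorsal progenitors, was above both, at 47.2 to 49.6 CPM in HD-het, 31.7 to 32.8 CPM in control and 0.0947 to 0.153 CPM in HD-homo. Dlx2 and Lhx6, of the ventral forebrain, were below both, Dlx2 at 3.96 to 5.81 CPM in HD-het against 15.5 to 16.7 CPM and 21.6 to 38.7 CPM. Pax2, a factor of the midbrain and hindbrain boundary, was at 31.6 to 34.3 CPM in control, 0.971 to 1.94 CPM in HD-homo and at most 0.061 CPM in HD-het. The progenitor marker Nes (nestin) was above both, 1.60-fold over control and 29.5-fold over HD-homo.

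Signals between cells were mixed in direction. Of 45 Wnt pathway genes, 12 were above both and 8 below. The receptor Fzd4 was at 12.8 to 18 CPM in HD-het against 2.13 to 2.77 CPM in control and 2.25 to 2.74 CPM in HD-homo, whereas the ligand Wnt7b was at 0.569 to 1.04 CPM in HD-het against 15.9 to 19.9 CPM and 2.84 to 4.29 CPM. In the Notch pathway, which keeps progenitors from differentiating, 6 of 17 genes were above both and 4 below, a number that fell to 1 without control replicate 1, control replicate 3 or HD-het replicate 1 and to 2 with DESeq2, without HD-het replicate 2 or 3 or without any of the HD-homo replicates. The ligand Jag1 was at 263 to 289 CPM in HD-het, 99.9 to 128 CPM in control and 9.57 to 21.7 CPM in HD-homo, and Rbpj, the factor that binds DNA for the pathway, was below both at 91.3 to 98.1 CPM. Axon guidance genes were above both in 16 of 52 and below both in 4. Ephb2, an ephrin receptor, was at 25.2 to 27.2 CPM in HD-het against 2.27 to 3.05 CPM and 5.22 to 7.15 CPM. Of 50 growth factors and receptors, 12 were above both and 5 below, among them Met, the receptor of hepatocyte growth factor, at 67.0 to 70.7 CPM in HD-het against 244 to 260 CPM in control and 143 to 168 CPM in HD-homo. Without HD-het replicate 3, 8 of the list were below both. For each of the genes given here with values genes HD-het did not overlap the other libraries.

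Most genes of the NF-kappaB pathway lay below both lines. Of 24 genes, 16 were below both and 1, Ikbkg, above, with a median departure of -0.44. Among the subunits that bind DNA, Nfkb2 was at 153 ± 9.10 CPM in control, 62.7 ± 1.59 in HD-het and 160 ± 13.6 in HD-homo, Rela at 120 ± 2.17, 84.0 ± 5.91 and 126 ± 4.72 CPM and Nfkb1 at 124 ± 5.62, 94.0 ± 2.61 and 142 ± 5.14 CPM. Rel was also below both and Relb was lower than the midpoint only. The inhibitors that hold the subunits in the cytoplasm went the same way, with Nfkbia at 50.6 ± 0.507, 22.5 ± 2.65 and 67.1 ± 12.7 CPM and Nfkbie 2.93-fold below control and 5.11-fold below HD-homo. Bcl3, a nuclear member of the inhibitor family, was at 0.622 to 1.25 CPM in control, at most 0.0564 CPM in HD-het and 4.89 to 8.69 CPM in HD-homo. The kinases Chuk, Ikbkb and Map3k14 were below both, whereas Ikbkg, the regulatory subunit of the same kinase complex, was at 54.9 to 60.4 CPM in HD-het against 29.5 to 32.2 CPM and 38.3 to 46.2 CPM. No member of the list lies on chromosome 15 or 18.

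Several of these genes are themselves read from kappaB sites, so their promoters were searched. The letters GGG and TTCC with any 3 bases between them occurred in 646 of the 10396 promoters (6.21%) and in 10 of the 20 matched promoters of the list, of which 7 belonged to genes below both (Nfkb2, Rel, Nfkbia, Nfkbie, Chuk, Traf3 and Cyld), 1 to Tnip1, lower than the midpoint, and 2 to Tnfaip3 and Traf2, not called. Of the 10 members without it, 7 were below both. The sites of 4 genes below both are printed with the match in capitals.
Nfkbia, chr12:55492657-55492686, + strand: gtcaggcgcgGGGAATTTCCaagccagtca
Nfkb2, chr19:46304716-46304745, + strand: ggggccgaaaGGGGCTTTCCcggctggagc
Rel, chr11:23771041-23771070, + strand: ggggagggggGGGGATTTCCcgctgcttac
Traf3, chr12:111166350-111166379, + strand: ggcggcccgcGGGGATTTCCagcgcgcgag

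Chemokines lay on either side. Of 27 chemokines and cytokines tested, 8 were below both (29.6%) and 4 above (14.8%), with a median of -0.45. Over all tested genes these shares were 22.3% and 22.7%. Ccl2, which attracts monocytes, was at 76.4, 74.5 and 92.4 CPM in control, 9.62, 11.3 and 7.31 CPM in HD-het and 138, 321 and 77.0 CPM in HD-homo. Ccl7 was 8.30-fold below control and 23.5-fold below HD-homo. Cx3cl1, fractalkine, was above both at 784, 753 and 453 CPM in HD-het against 180 to 224 CPM in control and 78.3 to 112 CPM in HD-homo, and Ccl17 was 9.51-fold and 15.3-fold higher. Ccl5 was on the floor in control and in HD-het and at 50 to 56.5 CPM in HD-homo.

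Interferon-stimulated genes were lower than the midpoint more often than they were below both lines. Of 43, 15 were lower than the midpoint only, 6 below both, 1 above both and 18 not called, with a median departure of -0.64. Cxcl10, a chemokine induced by interferon, was at 0.238 to 0.338 CPM in control, 0.419 to 0.761 CPM in HD-het and 52.6 to 96.4 CPM in HD-homo, so HD-het lay near control (departure -2.90 ± 0.48, adjusted p = 0.00024). The members below both included Ifitm3, which blocks viral entry, at 22.2 to 24.5 CPM in HD-het against 44.6 to 50.1 CPM and 105 to 181 CPM, and Trim25, a ubiquitin ligase of RNA sensing, 60.0-fold below control and 373-fold below HD-homo. Irgm1, an interferon-inducible GTPase, was above both.

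Of 11 genes of the cGAS-STING cascade, which senses DNA in the cytoplasm, 3 were below both (Enpp1, Tmem173 and Tbk1), 1 was above both (Irf3) and 6 were not off the midpoint. Without control replicate 2 or HD-het replicate 1, Irf3 was higher than the midpoint but not above both. Tmem173, which encodes STING, was at 12.5 to 13.8 CPM in control, 6.95 to 7.39 CPM in HD-het and 17.9 to 19.2 CPM in HD-homo. Cgas, the sensor, was at 0.0311 to 0.101 CPM in control, 2.52 to 2.68 CPM in HD-het and 44.5 to 49.3 CPM in HD-homo. HD-het was thus between the lines, at least 27.6-fold above control and 17.9-fold below HD-homo, and close to the log-scale midpoint (departure 0.57 ± 0.18, adjusted p = 0.039). Control was at the floor of 3 counts, so this midpoint rests on a level that was not resolved. On the linear scale the level of Cgas in HD-het lay far below the mean of the lines. Under other settings the departure ranged from 0.16 to 0.78 and the adjusted p from 0.028 to 0.19. Cgas is also listed and tested under its older symbol Mb21d1, and the values given are those of the entry named Cgas. Irf7, Zbp1, Aim2, Ifi204, Ikbke and Trex1 were not called.

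Huntingtin and its partners gave few genes outside the lines. Of 11, only Hap1, the huntingtin-associated protein of vesicle transport, was below both, at 7.65 to 9.60 CPM in control, 2.49 to 3.83 CPM in HD-het and 4.29 to 5.18 CPM in HD-homo. Htt, F8a, Hip1r, Cyfip1 and Bdnf were higher than the midpoint without lying above both, Fmr1, Cyfip2 and Zdhhc17 lower, and Hip1 and Rest were not called. By edgeR's quasi-likelihood test Hip1r lost its call without HD-het replicate 1 (adjusted p = 0.083), Zdhhc17 without HD-het replicate 1 or 3 (at most 0.105) and Cyfip2 without HD-het replicate 2 or 3 (at most 0.1005). Bdnf, a trophic factor for striatal neurons, was at 61.4 to 67.3 CPM in control, 105 to 118 CPM in HD-het and 103 to 143 CPM in HD-homo, so that HD-het overlapped HD-homo. Of the 10 striatal genes that could be tested, 4 were above both and 4 below, all but Itpr1 (27.1 to 36.5 CPM in HD-het against 84.8 to 88.6 and 51.7 to 64.7 CPM) at low level.

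For genes off the midpoint but not outside both lines, HD-het in the clearest cases lay far nearer to one homozygous line on the log scale. Tenm3, a teneurin of synaptic wiring, was at 153 to 159 CPM in control, 129 to 154 CPM in HD-het and at most 0.179 CPM in HD-homo, with a departure of 4.87 ± 0.09. Dmrta2, a factor of cortical progenitors, had the same form, at 53.1 to 57.7 CPM in HD-het and 55.4 to 60.9 CPM in control against 0.215 to 0.403 CPM in HD-homo. In the reverse form Aebp1, a matrix-binding carboxypeptidase-like protein, was at 0.338 to 0.715 CPM in control, 175 to 226 CPM in HD-het and 654 to 904 CPM in HD-homo. Mpg, a DNA glycosylase, was on the floor in control and at 10.1 to 10.3 and 26.1 to 27.8 CPM in the others. On the linear CPM scale the levels of Aebp1 and Mpg in HD-het lay below the mean of the other lines, so their direction depends on the scale. On the lower side Stat6, which transmits interleukin signals, was at 0.280 to 0.476, 0.449 to 0.508 and 93.9 to 111 CPM, so that HD-het overlapped control. Xlr and Itih2 were also lower than the midpoint, and lost that call without control replicate 1 (adjusted p = 0.957 and 0.954, edgeR's quasi-likelihood test).

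The position of HD-het also varied by chromosome. On chromosome 15, 59.5% of 558 tested genes were below both lines and 7.17% above, with a median departure of -0.59, and the median was negative in 8 of 8 bins of 10 Mb that held at least 20 tested genes, from -0.77 to -0.49. On chromosome 18, 46.9% of 354 genes were above both and 6.50% below, with a median of 0.41, and the median was positive in 9 of 9 such bins. Chromosome 10, with 39.8% below both, chromosome 19, with 39.9%, and chromosome 13, with 35.3%, were lower to a lesser degree, and chromosomes X, 1, 7, 9 and 12 were higher, with 30.7% to 32.7% above both. Against control the median of chromosome 15 was -0.55 and against HD-homo -0.62, while HD-homo and control differed by 0.03. The negative medians of chromosome 15 were thus found against both other lines. Bins with fewer tested genes were not computed. DNA copy number was not measured, and its part in these values was not tested.

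**Figure D5:**
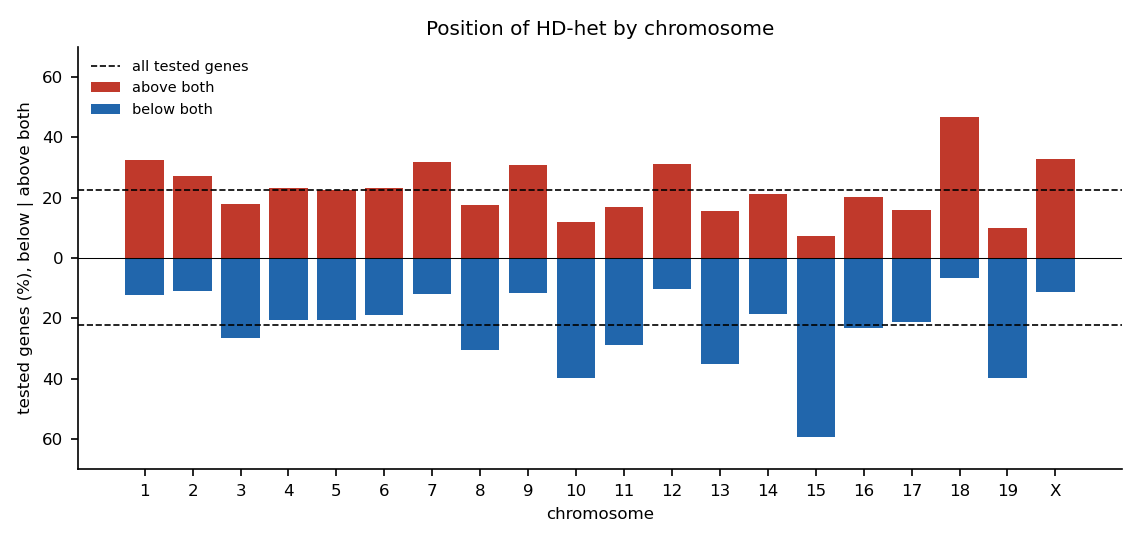
Share of tested genes on each chromosome for which HD-het lay above both lines (red, upward) or below both (blue, downward), in percent. Dashed lines give the shares among all tested genes, 22.7% and 22.3%; chromosome 15 reaches 59.5% below both and chromosome 18 46.9% above both.

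Without the genes of chromosomes 15 and 18, a count added after seeing the data, 2864 of 12596 genes were above both (22.7%) and 2651 below (21.0%), and the main groups kept their direction. Below both were 68 of 73 cytosolic ribosomal protein genes, 16 of 20 Hox genes, 15 of 22 heat shock genes and 45 of 74 mitochondrial ribosomal proteins. Above both were 22 of 36 lysosomal genes and 12 of 20 ER genes, and the contractile list had no member on either chromosome. Position by transcript length gave smaller differences: in the shortest 20% of genes 19.7% were above and 27.0% below both, and in the longest 20% 24.8% and 18%. Ribosomal protein transcripts are short, and among all 4274 tested genes in their range of length 24.8% were below both.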

How the data were processed

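For 9 libraries, 3 of each line, total RNA was extracted with miRNeasy and made into directional poly(A) libraries with NEBNext Ultra II. The deposited values are gene counts made by the authors, with no normalization. The submitters' processing notes list cutadapt, Bowtie 1.1.2, RSEM 1.3.0 and DESeq2, with the builds GRCm38.p5 and mm10, and give neither their roles nor their order. Every count in the table was a whole number and was used as deposited.

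Genes with too few reads were removed by filterByExpr at a minimum count of 10, libraries were scaled by the trimmed mean of M-values (TMM), and 3 contrasts were fitted over all 9 libraries with edgeR 4.0.16 in R 4.3.3: HD-het against the midpoint of control and HD-homo (weights 1, -0.5 and -0.5), HD-het against control and HD-homo. A quasi-likelihood test with Benjamini-Hochberg adjustment at 0.05 gave the calls, and the code was tested on simulated data. Folds are ratios of mean CPM. Where every library of a line was at or under 3 counts (0.0710 to 0.101 CPM), a lower bound was computed from that floor, which covers counting error only. 162 tested genes are also listed under a current symbol. Promoter sequences and coordinates came from RefSeq tables for GRCm38.p6.

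Genes were named by rule: the 12 per direction with the largest margin, at least 10 CPM and no overlap, the 3 per direction with the largest margin in each list, every member of lists of up to 12, genes the study names, and the 5 per direction with the largest departure between the lines. Further members, mostly those given by mean ± SD or by name and class alone, were chosen after their values were seen. The lines, gene lists and tests were chosen with earlier results of these data known. Same-numbered libraries of different lines had positive correlations of deviations, 0.0226 to 0.245, over 0.1 in 4 of 9 pairs. Between different-numbered libraries of different lines the values ran from -0.251 (control 3 and HD-het 2) to 0.0842 (control 1 and HD-het 2). The main fit did not use the numbers, and what same-numbered libraries share was not tested. The alternatives were DESeq2 1.42.0, other scalings and filters, thinning to equal depth, a minimum log2 difference of 1, a replicate block and leaving out each library. Some genes that the rule names are not reported here.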

Additional observations from a re-analysis of the deposited data

How the results depend on the processing

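A minimum log2 difference of 1 added to the adjusted p left 2619 genes off the midpoint, 903 above both lines, 498 below both, 2490 different from control and 3285 from HD-homo. Leaving out each library in turn gave 8562 to 9682 genes off the midpoint, 2698 to 3181 above both, 2648 to 3040 below both, 7865 to 9216 against control and 8977 to 9675 against HD-homo. With a replicate block, which groups same-numbered libraries, 9829, 3205, 3126, 9160 and 9938 genes were called in the same order. Of the 3070 genes above both 3047 were shared, and of the 3006 below both 2982. The other alternatives stayed within 1.5 times the reported counts for these 5 counts over all tested genes, and in none of the alternatives run did a gene pass from above both to below both. Of 305 named genes, 285 passed the threshold and 271 kept their call against the midpoint and its direction under DESeq2, its size factors, library totals, a prior count of 2, thinned counts, the replicate block and the omission of each library; calls above or below both could still be lost, as for Irf3 and Psmd8. Counts within short lists moved by more than 1.5 times: over the alternatives the number above both ran from 2 to 7 in the respiratory chain, 2 to 4 in the p53 pathway, 1 to 4 in mitosis and 0 to 1 in the cGAS-STING, proteasome, mitochondrial ribosome and huntingtin lists, and the number below both from 5 to 10 in glycolysis, 1 to 4 in the Notch pathway, 5 to 8 among growth factors, 7 to 11 among patterning factors, 1 to 2 among ER genes and protocadherins, 1 to 3 among YAP-TEAD targets, 2 to 4 among cadherins and 3 to 6 in apoptosis. Xlr and Itih2 lost their calls without control replicate 1 (adjusted p = 0.957 and 0.954, edgeR's quasi-likelihood test), and the cause was not tested. Departures changed sign only in genes that were not called: Trex1 did so under DESeq2 size factors (-0.00044), library totals (-0.021) and DESeq2 (-0.00067). On leaving out a library Trex1, Irf7, P2ry12, Map2, Hip1, Rest and Uty did so. Over all the settings listed for named genes the departures ran from -0.058 to 0.041 for Trex1, -0.49 to 0.089 for Irf7 and -0.70 to 0.63 for P2ry12. They ran from -0.090 to 0.072 for Map2, -0.081 to 0.061 for Hip1, -0.11 to 0.023 for Rest and -0.014 to 0.17 for Uty. Depth limits genes near the floor of 3 counts. Where a whole line was at that floor, folds are given as bounds, and a departure, as for Cgas, rests on a level that was not resolved.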

Other observations

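Genes of excitability, genome regulation and stress were also off the midpoint in either direction. Over all tested genes 22.7% were above both lines and 22.3% below both. The immediate early genes were near these shares (22.7% and 18.2%). Ion channels were at 30.6% and 19.4%, genes of histone and DNA methylation at 25% and 31.2% and the p53 pathway at 16.7% and 29.2%. Imprinted genes were at 40.9% and 18.2% and NRF2 targets at 23.8% and 42.9%. Of 36 ion channel genes, 11 were above both lines and 7 below. Cacnb4, an auxiliary calcium channel subunit, was at 5.03 to 5.95 CPM in HD-het against 0.372 to 0.436 CPM in control and 0.276 to 0.308 CPM in HD-homo, whereas Cacna1g, a T-type calcium channel, was at 0.329 to 0.610 CPM in HD-het against 1.66 to 2.49 CPM and 15.8 to 19.9 CPM. Of 22 imprinted genes, 9 were above both and 4 below, and Ndn (necdin) was at 58.5 to 61 CPM in HD-het, 29.0 to 31.1 CPM in control and 3.76 to 5.64 CPM in HD-homo. Of 48 genes of histone and DNA methylation, 12 were above both and 15 below. Dnmt3a, which adds methyl groups to DNA, was at 62.0 to 78.4 CPM in HD-het against 28.5 to 35.2 CPM and 25.6 to 29.4 CPM, and Tet1, which oxidises them, was at 0.569 to 0.790 CPM against 5.54 to 6.07 CPM and 1.32 to 1.44 CPM. Of 28 protocadherins, all on chromosome 18, 12 were above both, but the clustered genes share sequence and their counts are uncertain.

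Of 24 p53 pathway genes, 4 were above both and 7 below, and 2 were above both without HD-het replicate 1. Trp53 itself was below both, at 124 to 141 CPM in HD-het against 200 to 220 CPM in control and 179 to 189 CPM in HD-homo, and Gadd45a, a damage-induced target, was above both at 44.9 to 61.4 CPM against 13.6 to 14.6 CPM and 16.4 to 32.1 CPM. Of 21 NRF2 targets, 9 were below both and 5 above, and Nqo1, a quinone reductase, was at 33.8 to 35.2 CPM in HD-het against 70.7 to 81.2 CPM and 134 to 217 CPM. Of 22 immediate early genes, 5 were above both and 4 below (Fosl1, Ier3, Myc and Spry2). Egr1 was above both at 108 to 167 CPM, against 40.5 to 43.3 CPM and 58.5 to 99.9 CPM. Egr1 lies on chromosome 18, which as a whole was higher in HD-het, and Myc on chromosome 15, which was lower. Without the immediate early genes on these chromosomes, 4 of 18 were above both and 3 below. H2-T23, a non-classical class I molecule, was at 21.5 to 23.4 CPM in HD-het, 6.36 to 7.56 CPM in control and 1.33 to 1.40 CPM in HD-homo.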
